A study of Mus musculus with 6 samples.

Results

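Forkhead box (Fox) genes encode transcription factors that share a winged-helix DNA-binding domain and are sorted into subclasses by letter. The genes described here were every probe set whose platform annotation gave exactly one symbol of the form Fox, a letter from a to s and a number, with the probe set of highest mean over the 6 arrays kept for each gene. This gave 43 genes from 45 probe sets, out of 19938 genes tested. Expression was measured on Affymetrix Mouse Gene ST 1.0 arrays in mandibular arches, the lower-jaw part of the first pharyngeal arch, dissected from C57BL/6 mouse embryos at embryonic day 9.5. Tbx1+/+ embryos (wild type, 3 arrays) were set against Tbx1-/- embryos (Tbx1 null, 3 arrays), and no other allele or treatment is given for either group. The tissue of 3 embryos per genotype was pooled to obtain enough RNA, and the labels do not say whether each array carried its own pool, so the p-values rest on a spread among arrays that may in part be technical.

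As background, Fox factors mark the germ layers that meet in the arch. Foxa genes act in endoderm, Foxc and Foxf genes in mesoderm and mesenchyme, Foxd3 in neural crest, and Foxe1 and Foxi3 in oral and pharyngeal epithelium. Foxa2, Foxc1 and Foxc2 are known as activators of Tbx1 itself, downstream of Sonic hedgehog, and Foxo, Foxk and Foxm1 are widely used regulators of metabolism, repression and mitosis.

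Values are log2 expression levels, and changes are Tbx1 null minus wild type on the log2 scale. Tbx1 was 11.64, 11.36 and 11.31 on wild-type replicates 1, 2 and 3 and 9.48, 9.39 and 9.63 on the Tbx1 null replicates, a change of -1.94 (limma adjusted p = 0.000684). The mean of 3 Y-linked genes was 8.57, 9.07 and 9.85 on the wild-type arrays and 9.58, 9.28 and 5.73 on the Tbx1 null arrays. Arrays of a genotype thus did not carry identical RNA and differed in their share of male tissue. Tbx1 null replicate 3 stood furthest from the others of its genotype. The part of sex in the Fox results was not tested. Wild-type replicate 1 stood apart in migratory crest and glial markers (Sox10, Erbb3, Foxd3, Ngfr and Fabp7; 5 of 7 measured), with a mean level of 9.996 against 9.31 and 9.43 on the other wild-type arrays. The Tbx1 null arrays were lower still, at 9.12, 9.05 and 9.25, so the genotypes did not overlap. No background probes were given, so how far a dim probe set lies above background is not known, and levels of different genes are not compared.

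Of the 43 genes 2 (4.65%) passed a limma adjusted p of 0.05, against 0.16% of all genes tested. They are immediate neighbours: Foxe3 and Foxd2, both lower in Tbx1 null. Their promoters are shown because the genes lie side by side and changed alike. The Foxl2 promoter stands beside them because Foxl2 was the next lowest in p and the probe set annotated to Foxl2os, named for its opposite strand, also fell. Each run is the 250 bases before the gene's start from RefSeq, build GRCm38.p6, printed 5′ to 3′ on the gene's strand with CG dinucleotides in capitals. Foxd2 is read from chr4:114908899-114909148 (minus strand), Foxe3 from chr4:114926068-114926317 (minus strand) and Foxl2 from chr9:98955357-98955606 (plus strand).
Foxd2: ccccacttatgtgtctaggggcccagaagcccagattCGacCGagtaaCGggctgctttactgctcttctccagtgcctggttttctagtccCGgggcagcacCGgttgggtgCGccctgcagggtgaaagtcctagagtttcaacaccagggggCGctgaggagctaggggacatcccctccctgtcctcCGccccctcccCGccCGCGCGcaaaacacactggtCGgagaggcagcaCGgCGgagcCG
Foxe3: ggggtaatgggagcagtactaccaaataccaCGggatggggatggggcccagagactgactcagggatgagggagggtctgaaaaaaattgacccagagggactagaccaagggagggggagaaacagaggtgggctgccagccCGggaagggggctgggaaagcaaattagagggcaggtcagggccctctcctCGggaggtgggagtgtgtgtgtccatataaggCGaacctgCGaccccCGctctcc
Foxl2: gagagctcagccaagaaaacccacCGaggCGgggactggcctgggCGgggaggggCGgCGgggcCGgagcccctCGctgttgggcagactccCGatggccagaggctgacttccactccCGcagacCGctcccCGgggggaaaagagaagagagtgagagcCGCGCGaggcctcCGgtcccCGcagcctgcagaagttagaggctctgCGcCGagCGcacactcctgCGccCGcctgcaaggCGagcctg

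The neighbours differ in base composition: the Foxd2 window has 16 CG dinucleotides and 64.4% G and C, and the Foxe3 window 6 and 60.0%. The Foxl2 window has 22 and 70.8%. The median was 16 CG dinucleotides over the 33 promoters of the 28 Fox genes matched by symbol, against 6 over all 32851 promoters. The forkhead motif GTAAACA, searched on both strands, was in 1 of the 33 Fox windows (3.03%, that of Foxa1) and in 3.17% of all windows. The T-box motif AGGTGTGA was in 0 of the 33 and in 1.12% of all, and the Gli motif TGGGTGGTC in 0 and in 0.225%. A window with no match shows only that these letters are not in its 250 bases.

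Foxe3, a transcription factor of the lens, showed the clearest difference of the family. It measured 9.53, 9.45 and 9.48 on wild-type replicates 1, 2 and 3 and 8.94, 8.93 and 9.01 on the Tbx1 null replicates (probe set 10515162, Entrez gene 30923). The lowest wild-type array lay 0.44 above the highest Tbx1 null array. Foxe3 fell from 9.485 ± 0.038 (SD, n = 3) to 8.960 ± 0.044, which is 1.44-fold lower (log2 change -0.53, 95% interval -0.63 to -0.42, limma adjusted p = 0.0133). By p it stood at rank 6 among all genes tested. The adjusted p rose to 0.104 without wild-type replicate 2, to 0.0796 without Tbx1 null replicate 1 and to 0.133 without Tbx1 null replicate 2, while the change stayed between -0.57 and -0.50 in all 14 alternatives run.

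Foxd2, a factor of cranial and paraxial mesenchyme, was 10.19, 10.12 and 10.14 in wild type and 9.66, 9.66 and 9.82 in Tbx1 null (probe set 10515159, Entrez gene 17301). Its genotypes were separated by 0.30, with Tbx1 null replicate 3 the nearest to wild type. Foxd2 fell from 10.152 ± 0.035 to 9.716 ± 0.091, 1.35-fold lower (log2 change -0.44, 95% interval -0.57 to -0.31, limma adjusted p = 0.0466). The call was lost with any 1 array left out. Leaving out wild-type replicate 1, then 2, then 3 gave an adjusted p of 0.107, 0.173 and 0.114. The same for the Tbx1 null arrays gave 0.169, 0.230 and 0.0532. The unadjusted p of Foxd2 was at most 0.000508 over the 14 alternatives and that of Foxe3 at most 5.1e-05.

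In RefSeq both genes lie on the minus strand of chromosome 4, with 17169 bases between their starts and no protein-coding gene between them. The protein-coding genes on either side had differences near 0. Trabd2b, next to Foxd2, differed by 0.01 (95% interval -0.10 to 0.13), and Cmpk1, next to Foxe3, by 0.07 (-0.06 to 0.19). Their intervals do not reach those of Foxd2 and Foxe3. Skint11 and Stil, one gene further out, differed by 0.05 and 0.09 (limma adjusted p = 0.903 and 0.611). The difference between the Fox genes and their neighbours was not itself tested.

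**Figure D1:**
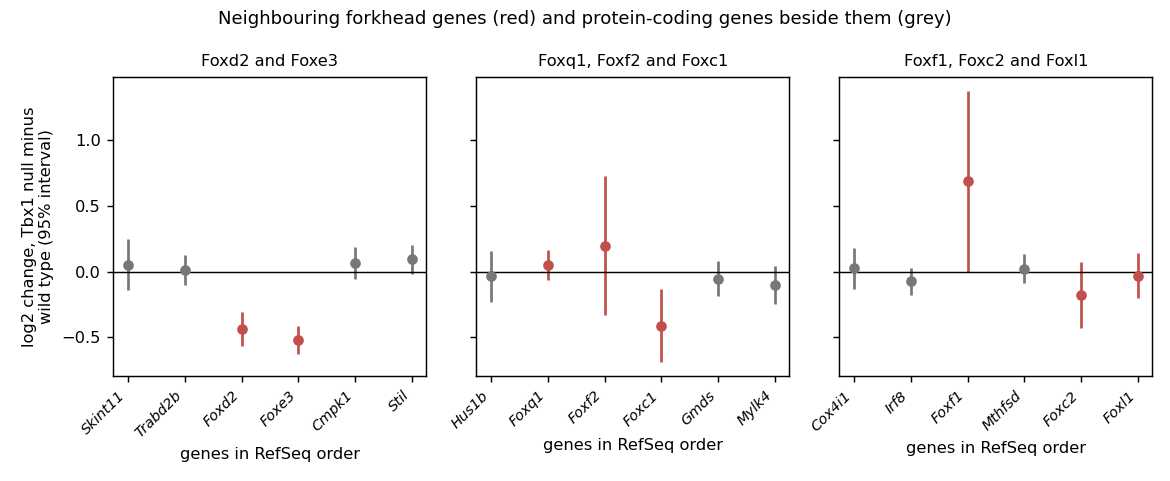
Log2 change (Tbx1 null minus wild type, points) with the 95% limma interval (lines) of Fox genes that lie together (red) and of protein-coding genes beside them (grey), placed in RefSeq order with equal spacing. Foxd2 (-0.44) and Foxe3 (-0.53) lie below 0 while Trabd2b (0.01) and Cmpk1 (0.07) do not, the middle panel runs from 0.20 for Foxf2 to -0.41 for Foxc1, and in the right panel Foxf1 is at 0.69 with Foxc2 (-0.18) and Foxl1 (-0.03) below 0.

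The other Fox genes that lie together had smaller or mixed differences. On chromosome 13, Foxq1, Foxf2 and Foxc1 differed by 0.05, 0.20 and -0.41. On chromosome 8, the adjacent Foxc2 and Foxl1 differed by -0.18 and -0.03, both below 0. Foxf1 (0.69) lies nearby, with Mthfsd (0.02) between it and Foxc2. Only Foxc1 of these reached an unadjusted p of 0.05.

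Markers of some other cells also differed between the genotypes. Counts are at an unadjusted limma p of 0.05, which 5.5% of all genes passed as higher and 3.94% as lower. Of 8 core mesoderm markers 7 were measured, and at an unadjusted p of 0.05 5 were lower and 1 higher. Tbx1 itself is 1 of the 5, and its fall is set by the genotype. Their mean without Tbx1 ran from 9.31 to 9.47 on wild-type arrays and from 8.77 to 8.97 on Tbx1 null arrays, so these did not overlap. All 9 measured primitive erythroid markers were lower (means 10.35 to 10.42 against 10.05 to 10.12), and 6 of 9 cardiac markers were higher (8.48 to 8.79 against 8.83 to 9.40). Surface ectoderm markers had 4 of 10 higher (10.15 to 10.20 against 10.30 to 10.34), and crest mesenchyme markers 6 of 11 (11.39 to 11.50 against 11.58 to 11.65). Of the 5 migratory crest and glial markers 2 were lower (9.31 to 9.996 against 9.05 to 9.25). Of 9 neural markers 3 were lower and 1 higher, with means that overlapped (7.46 to 7.74 against 7.40 to 7.47). Of 10 endothelial markers none passed in either direction, and of 8 macrophage markers 1 was lower. At a limma adjusted p of 0.05, 2 core mesoderm markers (Tbx1 among them) and 1 migratory crest marker were lower. At that threshold 1 crest mesenchyme marker was higher, and no erythroid or cardiac marker passed. The part of these shifts in the Fox results was not tested, and in bulk tissue fewer cells of a type and less RNA per cell cannot be told apart.

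Over the family, 2 of 43 genes (4.65%) passed the adjusted threshold against 0.16% of all genes tested. At an unadjusted p of 0.05, 4 Fox genes (Foxe3, Foxd2, Foxl2 and Foxc1; 9.30%) were lower against 3.94% of all genes, and 1 (Foxp1; 2.33%) was higher against 5.5%. Arrays did not overlap in 4 genes higher in Tbx1 null (9.30%, all genes 8.36%) and in 3 lower (6.98%, all genes 7.06%), shares close to the background. The median change was -0.02 over the 43 genes and -0.01 over all genes, with 20 Fox genes above 0 and 23 below. The 2 calls became 1 (Foxe3) on leaving out Tbx1 null replicate 3 or either of wild-type replicates 1 and 3, and 0 when any 1 of the other arrays was. Leaving out wild-type replicate 1 or 2 took the 4 lower genes to 7. The 1 higher gene became 2 when any 1 wild-type array or Tbx1 null replicate 3 was left out. Counts without overlap grow by construction with fewer arrays. Those lower became 6, 5 and 6 with wild-type replicate 1, 2 or 3 left out and 8 with Tbx1 null replicate 3 left out, and those higher became 7 and 8 with wild-type replicate 3 and Tbx1 null replicate 3 left out.

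**Figure D2:**
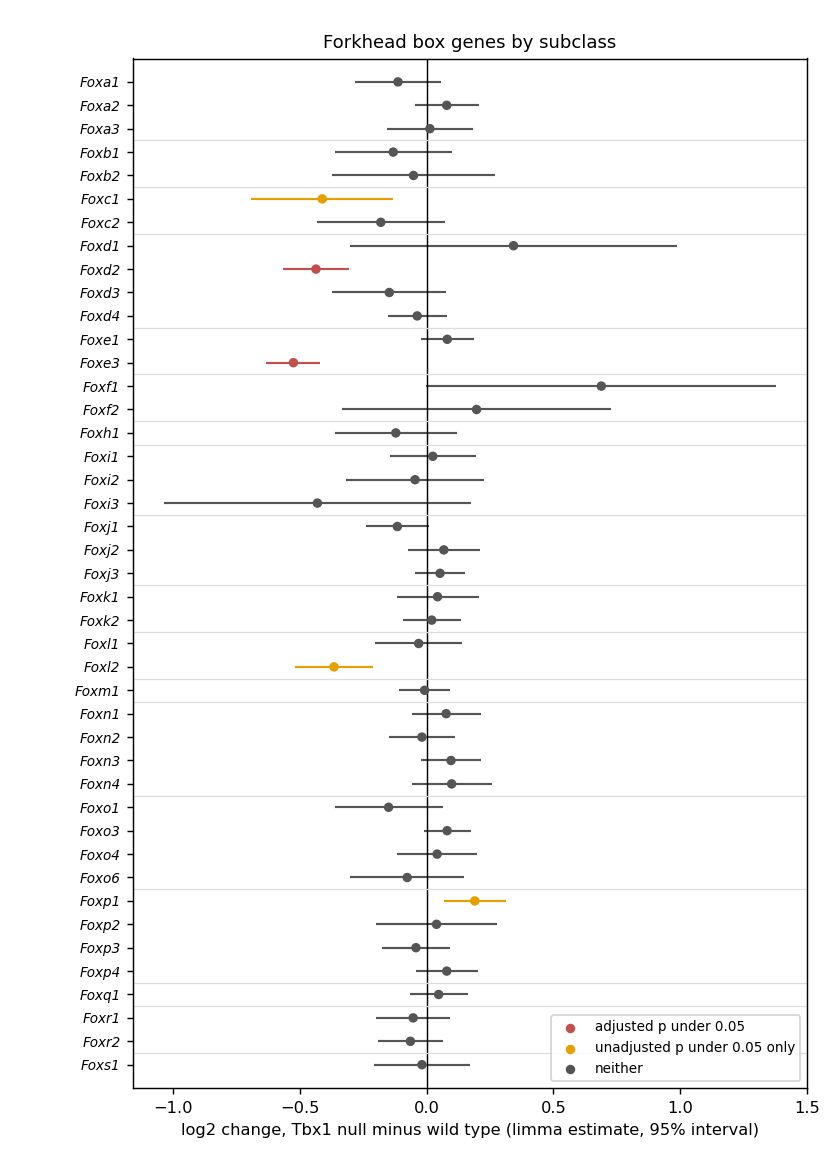
Log2 change of each of the 43 Fox genes (points, Tbx1 null minus wild type) with its 95% limma interval (lines), ordered by subclass letter from a to s and coloured by whether the gene passed an adjusted p of 0.05, an unadjusted one only, or neither. Foxe3 (-0.53) and Foxd2 (-0.44) are the called genes, most others lie close to 0, and the widest intervals are those of Foxf1, Foxd1, Foxi3 and Foxf2.

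Changes of the family were estimated less precisely than those of genes in general, with a median SE of 0.068 against 0.058 over all genes. That SE holds differences in RNA between arrays as well as measurement error. Whether an interval stays within a limit depends on the size of the change as well as on its SE. The 95% interval of the change lay within a 1.5-fold difference in either direction for 37 of the 43, and within 1.25-fold for 29. The 6 genes with intervals past 1.5-fold were Foxe3, Foxc1, Foxd1, Foxf1, Foxf2 and Foxi3. Of these Foxe3 had a small SE (0.046) and passed the limit through its change. Among all genes 98.3% had intervals within 1.5-fold and 89.3% within 1.25-fold. Of the 43, 19 had a mean level below the median gene and 3 (Foxa3, Foxd4 and Foxr2) below the first quartile, where array values tend to understate changes.

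Among factors of mesoderm and mesenchyme, Foxl2 and Foxc1 came closest to the called genes. Foxl2, known from the ovary and eyelid, was 9.25, 9.34 and 9.12 in wild type and 8.91, 8.91 and 8.80 in Tbx1 null (probe set 10588081, Entrez gene 26927). No Tbx1 null array reached a wild-type one, and the gap was 0.21. The change was -0.37 (1.29-fold lower, 95% interval -0.52 to -0.21), with an unadjusted p of 0.000656 and a limma adjusted p of 0.120. With array weights the adjusted p was 0.0126, the only alternative in which Foxl2 passed.

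Foxl2os, the transcript named for the opposite strand of Foxl2, was not a member by the rule and was looked at after its values were known. It has a probe set of its own (10595911, Entrez gene 768252), which read 9.24, 9.20 and 9.13 in wild type and 8.75, 8.70 and 8.76 in Tbx1 null. It fell by 0.45 on the log2 scale (1.37-fold lower, 95% interval -0.56 to -0.34, limma adjusted p = 0.0294). The gap between the genotypes was 0.37. The call was lost without wild-type replicate 1 or 2 and without any 1 of the Tbx1 null arrays, with adjusted p between 0.0730 and 0.166, and held without wild-type replicate 3 (0.0398). Both probe sets were thus lower on all 3 Tbx1 null arrays. The strand that each of them reads was not checked, so whether they measure separate transcripts is not known.

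Foxc1, needed for head mesenchyme, vessels and skull, was 9.65, 9.34 and 9.66 in wild type and 9.09, 8.96 and 9.36 in Tbx1 null (probe set 10404407, Entrez gene 17300). The genotypes just overlapped, since Tbx1 null replicate 3 lay above wild-type replicate 2. The change was -0.41 (1.33-fold lower, 95% interval -0.69 to -0.13, unadjusted p = 0.00968, limma adjusted p = 0.327). It kept an unadjusted p below 0.05 in all 14 alternatives, at changes from -0.52 to -0.32.

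Foxc2, its close relative in paraxial mesoderm and lymphatic vessels, was 9.33, 9.66 and 9.80 in wild type and 9.39, 9.40 and 9.45 in Tbx1 null. Wild-type replicate 1 lay below every Tbx1 null array, and the other wild-type arrays lay above them. The change was -0.18 (95% interval -0.43 to 0.07, limma adjusted p = 0.674). Without wild-type replicate 1 it was -0.31 with an unadjusted p of 0.00121 (adjusted p = 0.170), and without wild-type replicate 3 it was -0.08.

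**Figure D3:**
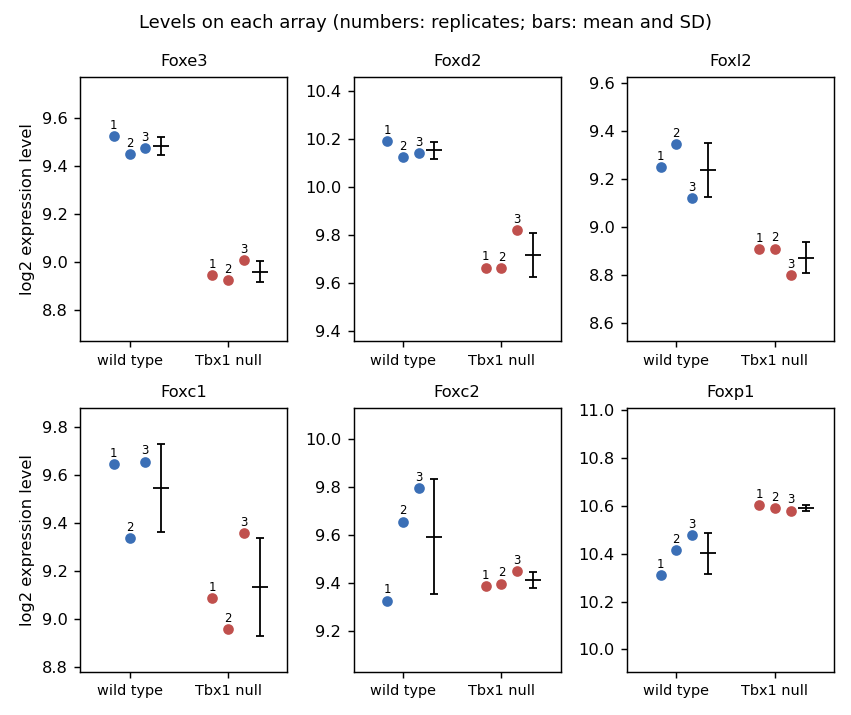
Log2 expression level on each array (points, replicate numbers above) for 6 Fox genes in wild type (blue) and Tbx1 null (red), with the mean and SD of 3 arrays in black. Foxe3, Foxd2 and Foxl2 are lower and Foxp1 is higher in Tbx1 null with no overlap, while Foxc1 and Foxc2 overlap through wild-type replicates 2 and 1. The axes start at different levels.

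Foxf1, a hedgehog-responsive factor of splanchnic mesoderm, had the largest change of the family and also the largest spread. It was 10.34, 11.38 and 11.50 on the wild-type arrays and 11.94, 11.94 and 11.40 on the Tbx1 null arrays (probe set 10576046, Entrez gene 15227). Wild-type replicate 1 was far below the other arrays, and Tbx1 null replicate 3 fell among the other wild-type arrays. The change was 0.69 (1.61-fold, 95% interval -0.0015 to 1.38, unadjusted p = 0.0504, limma adjusted p = 0.530), and it was 0.32 without wild-type replicate 1. It was 0.84 with wild-type replicate 2 left out, 0.90 with wild-type replicate 3 left out and 0.87 with Tbx1 null replicate 3 left out, each with an unadjusted p under 0.05 and an adjusted p of at least 0.320. The other Foxf1 probe set, 10576049, gave the same order of arrays at its extremes (9.77, 10.96 and 11.05 against 11.70, 11.68 and 11.05), with a change of 0.88 and an unadjusted p of 0.052 in the fit to every probe set.

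Foxf2, which acts with Foxf1 in palate and gut mesenchyme, was 8.85, 9.66 and 9.79 in wild type and 9.71, 9.75 and 9.42 in Tbx1 null. Its change of 0.20 (95% interval -0.33 to 0.73) turned to -0.09 without wild-type replicate 1 and was 0.31 with wild-type replicate 2 left out, 0.38 with wild-type replicate 3 left out and 0.30 with Tbx1 null replicate 3 left out. Foxd1, a factor of kidney stroma and facial mesenchyme, was 7.63, 8.36 and 8.58 in wild type and 8.67, 8.88 and 8.05 in Tbx1 null, a change of 0.34 (-0.30 to 0.99). It was 0.06 without wild-type replicate 1, 0.17 without Tbx1 null replicate 2, 0.54 without wild-type replicate 3 and 0.59 without Tbx1 null replicate 3. In Foxf1, Foxf2 and Foxd1 alike, wild-type replicate 1 was the lowest array of its genotype and Tbx1 null replicate 3 the lowest of its own.

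Foxi3, a factor of pharyngeal ectoderm and placodes, showed the opposite order. It was 11.94, 10.85 and 11.11 in wild type and 10.68, 10.78 and 11.15 in Tbx1 null, with wild-type replicate 1 and Tbx1 null replicate 3 the highest of their genotypes. The change was -0.43 (95% interval -1.04 to 0.18, limma adjusted p = 0.678). It was -0.11 without wild-type replicate 1 and -0.66 (unadjusted p = 0.0332, adjusted p = 0.625) without wild-type replicate 2. The pooled within-genotype SD was 0.50 for Foxf1, 0.47 for Foxd1, 0.44 for Foxi3 and 0.38 for Foxf2. Those SDs exceed those of 99.9%, 99.9%, 99.8% and 99.8% of all genes. Of the 43 Fox genes, 8 (18.6%) had an SD above the 95th percentile of all genes, 0.164: these 4 with Foxb2, Foxc1, Foxc2 and Foxi2.

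**Figure D4:**
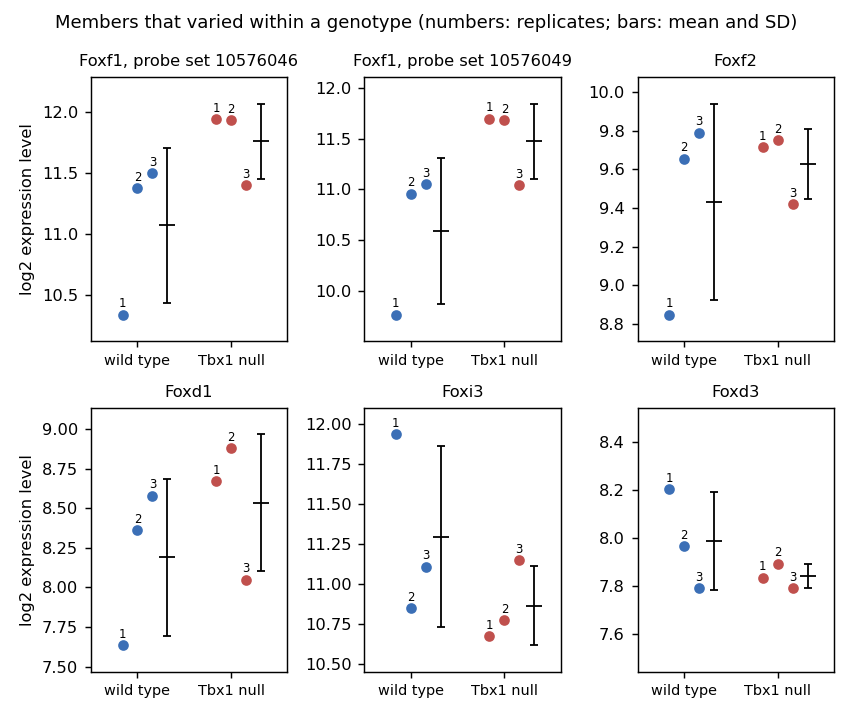
Log2 expression level on each array (points, replicate numbers above) for both Foxf1 probe sets, Foxf2, Foxd1, Foxi3 and Foxd3 in wild type (blue) and Tbx1 null (red), with the mean and SD of 3 arrays in black. Wild-type replicate 1 is lowest for Foxf1, Foxf2 and Foxd1 and highest for Foxi3 and Foxd3. The axes start at different levels.

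Foxd3, a factor of premigratory and migrating neural crest, was 8.20, 7.97 and 7.79 in wild type and 7.84, 7.89 and 7.79 in Tbx1 null. Its highest value was on wild-type replicate 1, the array on which the crest marker Sox10 reached 10.21 against 8.37 to 9.16 elsewhere. Foxd3 is itself among the migratory crest and glial markers averaged above, and a link to crest content was not tested. The change was -0.15 (95% interval -0.37 to 0.08), and ran from -0.04 without that array to -0.24 (unadjusted p = 0.0176, limma adjusted p = 0.295) without wild-type replicate 3. Foxd4 differed by -0.04 (-0.15 to 0.08). Foxl1, of gut mesenchyme, differed by -0.03 (-0.20 to 0.14) and Foxs1, of perivascular cells and sensory neurons, by -0.02 (-0.21 to 0.17).

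In the endodermal subclass Foxa2, a pioneer factor of endoderm and floor plate, was 8.32, 8.29 and 8.37 in wild type and 8.38, 8.50 and 8.34 in Tbx1 null. The arrays overlapped, with a change of 0.08 (95% interval -0.05 to 0.21). Foxa1 differed by -0.11 (-0.28 to 0.06) and Foxa3, of liver and gut, by 0.01 (-0.16 to 0.18). Each of the 3 intervals lies within a 1.25-fold difference. Of 11 endoderm markers 10 were measured, Foxa1 and Foxa2 among them. Their means ran from 7.87 to 7.97 in wild type and from 7.83 to 7.93 in Tbx1 null. Of these 10, 1 rose (Nkx2-1, 0.32) and 1 fell (Sox17, -0.18) with a limma p under 0.05 before adjustment. By that rule 5.5% of all genes tested rose and 3.94% fell. Foxh1, the partner of Smad proteins in Nodal signalling, differed by -0.12 (-0.36 to 0.12).

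Among the epithelial factors Foxe1, of thyroid and palate, was 9.97, 9.97 and 9.99 in wild type and 10.01, 10.11 and 10.05 in Tbx1 null. All Tbx1 null arrays lay above wild type, but by only 0.02. The change was 0.08 (-0.02 to 0.19, limma adjusted p = 0.640), so Foxe1 did not share the fall of Foxe3, of the same subclass. Foxi1, of the inner ear, and Foxi2, of cranial ectoderm, differed by 0.02 (-0.15 to 0.19) and -0.05 (-0.32 to 0.23), and Foxq1 by 0.05 (-0.07 to 0.16). The neural factors Foxb1 and Foxb2 differed by -0.13 (-0.36 to 0.10) and -0.05 (-0.37 to 0.27).

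Among broadly expressed members Foxp1, a repressor of several developing tissues, was the only one past an unadjusted p of 0.05. It was 10.31, 10.41 and 10.48 in wild type and 10.60, 10.59 and 10.58 in Tbx1 null (probe set 10546661, Entrez gene 108655). The Tbx1 null arrays all lay above wild type, by 0.10. The change was 0.19 (1.14-fold, 95% interval 0.07 to 0.31, unadjusted p = 0.00737, limma adjusted p = 0.297), between 0.15 and 0.23 over 14 alternatives. Foxp4 was 11.06, 11.04 and 11.07 in wild type and 11.09, 11.08 and 11.23 in Tbx1 null, no overlap but a gap of 0.01 and a change of 0.08 (-0.04 to 0.20). Foxp2, best known from the brain, differed by 0.04 (-0.20 to 0.28), and Foxp3, of regulatory T cells, by -0.04 (-0.18 to 0.09).

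None of the Foxo factors, which insulin signalling holds out of the nucleus, passed an unadjusted p of 0.05. Foxo3 was 9.84, 9.82 and 9.84 in wild type and 9.94, 9.91 and 9.90 in Tbx1 null, with no overlap and a change of 0.08 (-0.01 to 0.17). Its pooled SD of 0.016 was the smallest of the 43, and the limma adjusted p was 0.603. Foxo1 differed by -0.15 (-0.36 to 0.06), and by -0.05 without wild-type replicate 1 and -0.22 (unadjusted p = 0.0474, adjusted p = 0.678) without wild-type replicate 2. Foxo4 differed by 0.04 (-0.12 to 0.20) and the brain-enriched Foxo6 by -0.08 (-0.30 to 0.15).

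The mitotic factor Foxm1 differed by -0.01 (-0.11 to 0.09), with arrays between 11.71 and 11.78 in both genotypes. The repressors Foxk1 and Foxk2 differed by 0.04 (-0.12 to 0.20) and 0.02 (-0.09 to 0.13). Foxj2 and Foxj3 differed by 0.07 (-0.07 to 0.21) and 0.05 (-0.05 to 0.15), and Foxj1, the regulator of motile cilia, by -0.12 (-0.24 to 0.01). Foxn1 of the thymic epithelium differed by 0.08 (-0.06 to 0.21), Foxn2 by -0.02 (-0.15 to 0.11), Foxn3 by 0.10 (-0.02 to 0.21) and Foxn4, of retina and spinal cord, by 0.10 (-0.06 to 0.26). The other Foxn3 probe set, 10402066, differed by 0.12 without overlap (unadjusted p = 0.0215 in the fit to every probe set). Foxr1 and Foxr2 differed by -0.05 (-0.20 to 0.09) and -0.06 (-0.19 to 0.06).

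No subclass of 3 or more members had all of them on one side of 0. The medians were 0.01 for Foxa (3 genes), -0.09 for Foxd (4), -0.05 for Foxi (3), 0.05 for Foxj (3), 0.09 for Foxn (4), -0.02 for Foxo (4) and 0.06 for Foxp (4). Among subclasses of 2, both members were below 0 in Foxc (median -0.30), Foxl (-0.20), Foxb (-0.09) and Foxr (-0.06), and above 0 in Foxf (0.44) and Foxk (0.03). Foxf2, Foxk1 and Foxl1 changed sign with 1 array left out. By the means of the remaining arrays, Foxb2, Foxk2 and Foxr1 also do so without Tbx1 null replicate 3. These shared directions are thus a description of the 6 arrays.

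Genes that work with the Fox factors were read from lists and counted at an unadjusted p of 0.05, beside 5.5% higher and 3.94% lower over all genes. Of 15 measured genes on the hedgehog list 1 (Gli2, 0.16) was higher and 1 (Osr2, -0.16) lower, and Boc differed by 0.16 (adjusted p = 0.582). Osr2 is a transcription factor listed beside the pathway and not a core component of it. Of 25 genes of the PI3K, Akt and Foxo axis 1 (Irs2, an insulin receptor substrate, 0.18) was higher and 1 (Irs1, -0.13) lower, while Sgk1 differed by 0.24 (adjusted p = 0.563). Of 17 mitotic targets of Foxm1 none passed in either direction, with changes from -0.06 to 0.01 and 15 of them below 0. The lowest p were those of Cdc20 (-0.05), Kif20a (-0.05) and Aurka (-0.06). These are limma values, and none of the genes in this paragraph passed an adjusted p of 0.05.

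Of 18 motile cilia genes tied to Foxj1, 2 were higher (Ccdc39, 0.17, and Rsph9, 0.16) and 1 lower (Ccdc40, -0.17). Of 12 genes of the Nodal and Smad axis of Foxh1, 2 were higher (Tdgf1, 0.26, and Acvr1b, 0.18) and 1 lower (Nodal, -0.17). Of 14 crest genes that accompany Foxd3, 3 were lower. These were Ngfr (-0.70, limma adjusted p = 0.0142), Sox10 (-0.85) and Sox8 (-0.12), and the first of them was the only gene on any of these lists to pass the adjusted threshold. Of 14 placode and pouch genes 2 were higher, Gata3 (0.48, from 10.40 ± 0.14 to 10.87 ± 0.07) and Pax8 (0.79), while Pax9 differed by -0.50 (adjusted p = 0.530). Of 16 corepressor partners of Foxp and Foxk none passed in either direction, with Ogt, Mta2 and Gatad2b at 0.06, -0.05 and 0.05.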

How the data were processed

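Total RNA (300 ng per array) was hybridised to 6 arrays, 3 per genotype. The authors deposited log2 expression levels for each probe set, computed by RMA with Expression Console 1.1 of Affymetrix according to the submitters' processing notes. That the scale is log2 was judged from the range, 3.63 to 14.6. RMA equalises the arrays, which hides any shift common to most genes. Of 35556 probe sets 21789 had 1 gene symbol in the platform annotation, 1621 had several and 12146 had none. Entrez IDs of 21698 matched a RefSeq table (GRCm38.p6), with 0 symbols changed. The table was used for names and gene order. No build is named with the values.

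A two-sided limma test (version 3.58.1, R 4.3.3; lmFit, then eBayes, no covariate) set Tbx1 null against wild type across all 19938 genes, with Benjamini-Hochberg adjustment over all of them. In simulated data of the same 19938 genes for this comparison, the test recovered 28 of 50 genes at a 1.25-fold change, 46 of 50 at 1.5-fold, and all 50 at both 2-fold and 4-fold. Of all 181 calls, 7 were false. The simulated variances were drawn from limma's own fitted prior, with independent arrays of equal variance. In the data the array weights ran from 0.41 to 3.0. The counts thus describe the test under its own model and not its recovery for the Fox genes.

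The members, gene lists and naming rule were chosen with earlier results of these data known. Named were genes past an adjusted or unadjusted p of 0.05 or without overlap, the largest change of each subclass, Fox genes of the arch, and up to 3 genes of lowest p per partner list. Alternatives were a replicate block, each array left out in turn, a further quantile normalisation, centring on medians, filters on dim genes, eBayes with trend and robust estimation, array weights, means of probe sets and every probe set. Those for Foxl2os were added after seeing the data. Promoters were matched by symbol.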

Additional observations from a re-analysis of the deposited data

How the results depend on the processing

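Foxe3 and Foxd2 remained called after quantile normalisation again, centring, both filters on dim genes, trend and robust estimation, array weights and means of probe sets, and no alternative reversed either. With the replicate block 0 Fox genes and 6 genes in all were called, and with every probe set tested 0 and 4, against 2 and 32. With that block the limma adjusted p was 0.0663 for Foxe3 and 0.0972 for Foxd2. The labels do not say whether same-numbered arrays were handled together. Correlations of same-numbered deviations were -0.045, 0.26 and 0.149, and those of the other pairs ran from -0.366 to 0.25. These values overlap, so whether the replicate numbers pair the arrays was not settled. All genes called were 96 with trend and robust estimation and 334 with array weights. With array weights 5 Fox genes passed an unadjusted p of 0.05 as higher and 7 as lower. The count of higher genes was 2 among genes above the median level, 3 with means of probe sets and 2 with every probe set. Without overlap 5 were lower after centring. With 1 array left out, the ranges were 0 to 1 for Fox genes called, 1 to 2 for higher, 4 to 7 for lower, 4 to 8 for those without overlap in either direction (fewer arrays overlap less by construction), and 3 to 20 for all genes called. All calls split into 17 higher and 15 lower, 12 and 22 after quantile normalisation again. At an unadjusted p under 0.05 they were 1097 and 786, then 899 and 1419, and 931 and 1081 after centring.

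Signs turned in small changes, which were followed over the alternatives only for the 26 named Fox genes. Foxp2 was -0.041 with array weights. With 1 array left out Foxf2 ran from -0.094 to 0.38, Foxi2 from -0.15 to 0.080, Foxk1 from -0.0037 to 0.11, Foxl1 from -0.10 to 0.036, Foxp2 from -0.083 to 0.11 and Foxs1 from -0.10 to 0.034. The cause was not tested. With 3 arrays per genotype the median SE of a Fox change was 0.068, which limits calls of small differences.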
